A study of Mus musculus with 9 samples.

Results

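The genes of the G2 and M phases of the cell cycle encode the machinery that commits a cell to mitosis, builds the spindle, fixes chromosomes to it and splits the cell. Cyclin B and its kinase CDK1 start mitosis, the kinetochore couples each centromere to spindle microtubules under the watch of checkpoint kinases, and the anaphase-promoting complex (APC/C) ends the phase by marking securin and cyclin B for destruction. Their transcripts are low in resting lymphocytes and accumulate late in the cycle, so in T cells they are widely read as marks of division. The 56 genes described here were taken by symbol from a list that covers cyclins and mitotic kinases, spindle motors, the kinetochore, condensin and cell division. This list and the further lists below were chosen with earlier results of these data known, so their counts are not independent of the data. All 56 were found among the 54232 genes of the mouse count table.

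RNA was sequenced from regulatory T (Treg) cells, the CD4 T cells that restrain immune responses and are defined by the transcription factor Foxp3. The cells came from mouse spleen and were sorted in every group by a YFP reporter of Foxp3, and the design text calls them naive natural Treg cells. The 9 libraries comprised 3 labelled as lacking the deubiquitinases Usp22 and Usp21 in Treg cells (dKO), 3 labelled as lacking Usp21 in Treg cells (Usp21 KO) and 3 from wild-type mice (WT), all without treatment. No group lacked Usp22 alone, so its loss was measured only on top of the loss of Usp21. The labels give neither the strain, age and sex of the mice nor the promoter that drives the deletions, and they number the libraries as biological samples without saying whether animals were pooled.

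Usp21 stood at 29.1, 28.5 and 26.1 CPM (read counts scaled to library size) in dKO, at 28.1, 23.1 and 24.97 CPM in Usp21 KO and at 66.2, 63.0 and 60.8 CPM in WT. Usp22 stood at 28.7, 25.8 and 21.6 CPM in dKO, against 82.1, 64.8 and 74.4 CPM in Usp21 KO and 71.0, 72.8 and 69.4 CPM in WT. Each targeted gene was thus lower in each library labelled as lacking it, with no overlap. The 8 defining Treg markers were counted in each group at a summed 3574 to 3848 CPM in dKO, 4443 to 4804 CPM in Usp21 KO and 4380 to 4602 CPM in WT. In dKO against WT 3 of the 8 fell (Foxp3, Tnfrsf18 and Nrp1), against 2.77% of all tested genes (edgeR's quasi-likelihood test, adjusted p under 0.05). Foxp3, on whose reporter the sort rested, stood at 299.8 to 372 CPM in dKO and at 622 to 689 CPM in WT. Total counts ran from 18067377 to 40334577 per library, 14994 genes passed the filter on low counts, and the 56 genes were all among them with 12 to 7206 counts in each library. Usp21 KO replicate 2 stood apart from the other Usp21 KO libraries in these genes, and results that rest on it are given with and without it.

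The promoters of these genes were searched for short sequence elements, which the list did not use. A pair of short elements is known from promoters that switch on in G2 and M. They are the cell cycle genes homology region, here searched as TTTGAA or TTTAAA, which is bound by the MuvB complex, and the CCAAT box, which is bound by NF-Y. In RefSeq promoter windows of GRCm38.p6, from 250 bases before to 50 bases after the annotated start, 47 of the 56 genes had 49 windows. With both strands searched, 40 of the 49 windows (81.6%) held TTTGAA or TTTAAA, against 27.6% of all 32851 windows in the table, and 37 (75.5%) held CCAAT, against 37.4% of all windows. The 2 elements stood together in 34 windows (69.4%), against 10.7% of all windows. Letters of the E2F type (TTCCCGC or TTGGCGC) were in 10 windows (20.4%), against 6.8% of all windows. In 36 of the 40 windows with TTTGAA or TTTAAA the nearest match began within 60 bases of the start. The same share was not computed over all windows, so this position cannot be called particular to these genes. Among the genes that did not pass the test in dKO against WT, the windows of Ccnb1, Cenpa, Prc1 and Racgap1 held TTTGAA or TTTAAA and those of Melk and Pttg1 did not. The window of Pttg1 (43425932 to 43426231) lies wholly inside the gene as annotated by GENCODE M21 (43420250 to 43426251). Bases before that GENCODE start were thus not searched. Windows of Cdca3, Cdca8, Kif2c, Kif4 and Troap lie inside their GENCODE genes too.

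The sequences below, each 120 bases before to 30 bases after the start, written 5′ to 3′ along the gene, show where the letters lie; capitals mark both forms of the cell cycle genes homology region and CCAAT, on either strand. The first 4 come from genes that rose in dKO and hold both elements, Cenpa holds both and did not pass the test, and Nusap1, which rose, and Pttg1, which did not pass, hold neither in this stretch. The stretch shown for Pttg1 lies inside its GENCODE gene, so it does not show the bases before the GENCODE start. These examples were chosen after the matches and the expression values were seen.
Cenpf (chr1:189688057-189688206, minus strand): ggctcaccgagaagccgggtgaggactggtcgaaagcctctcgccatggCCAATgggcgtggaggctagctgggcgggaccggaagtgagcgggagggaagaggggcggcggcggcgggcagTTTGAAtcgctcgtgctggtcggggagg
Ccnb2 (chr9:70421525-70421674, minus strand): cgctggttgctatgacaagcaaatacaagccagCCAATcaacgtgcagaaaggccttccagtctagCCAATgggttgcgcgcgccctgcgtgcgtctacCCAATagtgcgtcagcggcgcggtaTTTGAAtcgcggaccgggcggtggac
Cdk1 (chr10:69352883-69353032, minus strand): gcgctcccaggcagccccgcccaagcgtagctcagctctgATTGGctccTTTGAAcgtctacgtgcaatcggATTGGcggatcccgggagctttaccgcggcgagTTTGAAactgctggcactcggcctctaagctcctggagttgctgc
Espl1 (chr15:102296173-102296322, plus strand): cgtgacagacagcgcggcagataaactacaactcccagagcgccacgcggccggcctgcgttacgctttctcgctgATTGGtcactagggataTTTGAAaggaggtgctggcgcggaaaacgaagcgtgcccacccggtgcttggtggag
Cenpa (chr5:30666766-30666915, plus strand): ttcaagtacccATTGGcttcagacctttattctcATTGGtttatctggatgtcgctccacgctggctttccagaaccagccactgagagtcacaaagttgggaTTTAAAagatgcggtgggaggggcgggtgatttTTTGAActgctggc
Nusap1 (chr2:119618178-119618327, plus strand): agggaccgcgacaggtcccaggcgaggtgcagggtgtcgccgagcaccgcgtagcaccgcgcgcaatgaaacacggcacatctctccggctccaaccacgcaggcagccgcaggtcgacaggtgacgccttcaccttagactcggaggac
Pttg1 (chr11:43425952-43426101, minus strand): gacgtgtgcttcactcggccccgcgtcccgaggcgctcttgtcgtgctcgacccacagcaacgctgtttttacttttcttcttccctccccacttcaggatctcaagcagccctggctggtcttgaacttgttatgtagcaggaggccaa

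The first comparison set dKO against WT. Of the 56 genes, 50 rose in dKO and 0 fell (edgeR's quasi-likelihood test, Benjamini-Hochberg adjusted p under 0.05 over all tested genes), while 3.01% of all tested genes rose and 2.77% fell. At an unadjusted p under 0.05, 54 of the 56 were higher, against 11.3% of all tested genes. Over all tested genes 451 rose and 415 fell. With library totals in place of TMM factors these numbers were 807 (5.38%) and 236, and 53 of the 56 genes rose and 0 fell. The median log2 fold change was 1.64 over the 56 genes and -0.01 over all tested genes, and single genes ran from -0.14 (Pttg1) to 2.31 (Depdc1b). Each dKO library lay above each WT library in 54 of the 56 genes, an order seen in 17.6% of all tested genes. The summed level of the 56 genes was 1804, 1669 and 1700 CPM in dKO, 902, 1695 and 958 CPM in Usp21 KO and 627, 666 and 769.6 CPM in WT. The dKO libraries lay close together and above each WT library, and Usp21 KO replicate 2 lay among them. In RNA from bulk cells, a larger share of cells in G2 and M and more of these transcripts per cell cannot be told apart.

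**Figure D1:**
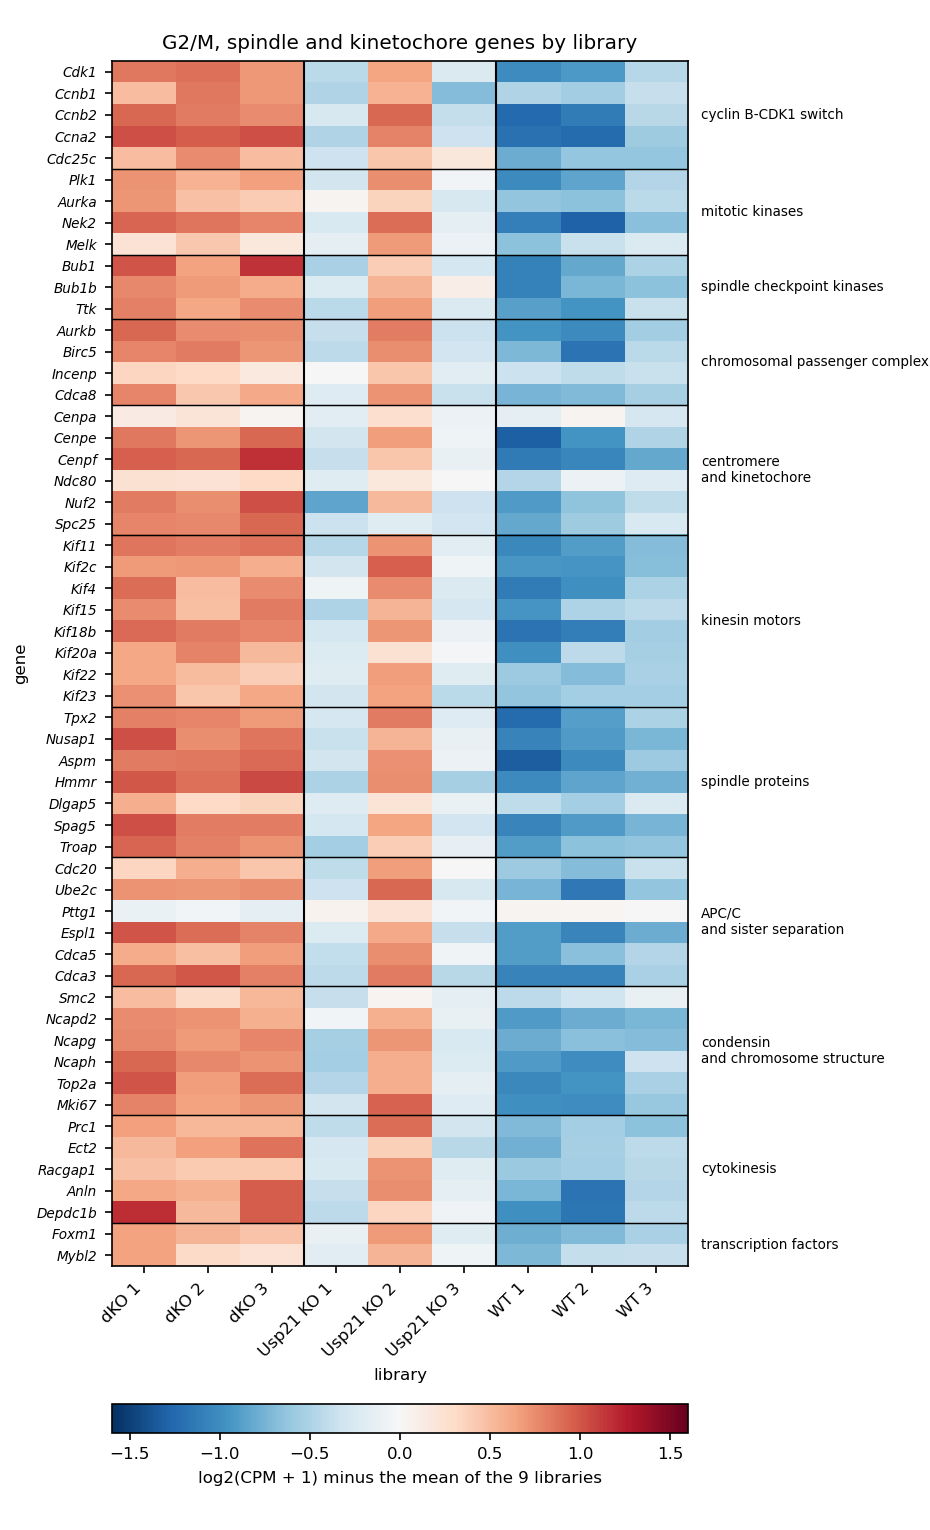
Level of the 56 genes in each library as log2(CPM + 1) minus the mean of the 9 libraries, with genes in rows by role and libraries in columns; red is above and blue below the mean of a gene. The 3 dKO columns and Usp21 KO replicate 2 are mostly red, the 3 WT columns mostly blue, and Pttg1 is nearly even across the row.

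The number of genes past the threshold depended on which libraries were in the fit. Fits that left out dKO replicate 1, 2 or 3 passed 25, 26 and 20 of the 56 genes. Over all tested genes these fits called 337, 283 and 255 in either direction, against 866 with all libraries. With WT replicate 1, 2 or 3 left out, 14, 22 and 35 of the 56 passed, and 193, 315 and 379 of all tested genes. Without WT replicate 1, 0.687% of all tested genes rose. The median log2 fold change of the 56 genes stayed between 1.59 and 1.87 in the fits that left out 1 of the 9 libraries. In each of these fits 0 of the 56 fell. The 14 genes that passed whichever library was left out, and in each other setting tried, were Aspm, Aurka, Bub1, Bub1b, Cenpf, Espl1, Kif18b, Kif20a, Ncapd2, Nusap1, Smc2, Spag5, Spc25 and Troap.

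**Figure D2:**
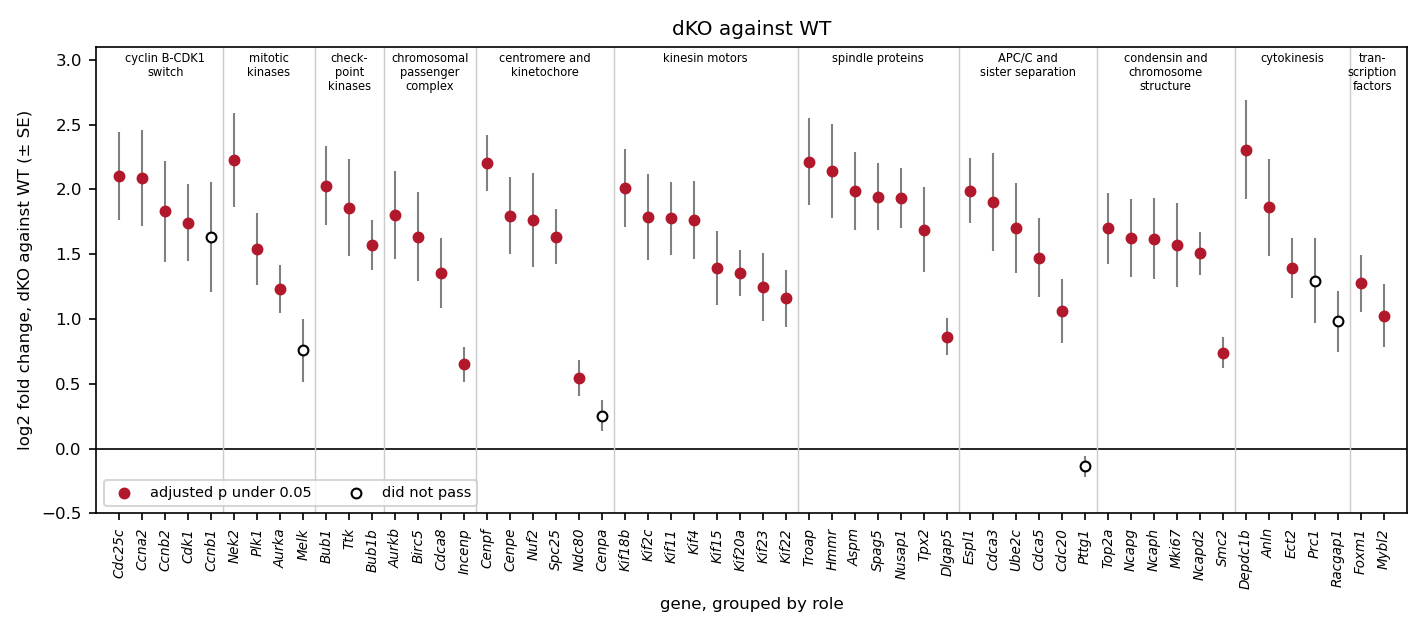
Log2 fold change of each of the 56 genes in dKO against WT (points) with its standard error (bars), grouped by role; filled points passed an adjusted p of 0.05 and open points did not. All but Pttg1 lie above 0, and the 6 open points are Ccnb1, Melk, Cenpa, Pttg1, Prc1 and Racgap1.

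The switch that starts mitosis was represented by 5 genes, of which 4 rose in dKO. Cdk1, the kinase of the switch (chromosome 10, 69335146 to 69352938, mm10), stood at 18.7, 19.15 and 16.8 CPM in dKO and at 4.43, 4.79 and 6.95 CPM in WT. The groups did not overlap, and the log2 fold change was 1.74 ± 0.30 (SE; adjusted p = 0.0116). Cdc25c, the phosphatase that activates CDK1, was at 2.83, 3.61 and 2.85 CPM in dKO and at 0.572, 0.774 and 0.784 CPM in WT, the lowest level per kilobase of exon among the 56 genes in dKO (0.630 CPM per kb). Its log2 fold change was 2.10 ± 0.34 (adjusted p = 0.00796). Cyclins A2 (Ccna2) and B2 (Ccnb2) rose by 2.09 and 1.83 on the log2 scale. With the replicate number as a block the adjusted p of Ccnb2 was 0.0650, and the log2 fold change 1.85. Ccna2 shares 510 bases of its exons (12.5%) with Exosc9, which lies on the other strand. Ccnb1, the main cyclin B, had 3.60, 4.84 and 4.26 CPM in dKO and 1.33, 1.22 and 1.52 CPM in WT, and its log2 fold change of 1.63 ± 0.43 did not pass (adjusted p = 0.0522). Ccnb1 has 4 near-identical processed copies in the genome that held 0 to 2 counts each over the 9 libraries, so its counts are uncertain.

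Among kinases of mitosis outside that switch, 3 of 4 rose in dKO. Aurka, the Aurora kinase of centrosomes and the spindle, was at 14.3, 11.97 and 11.4 CPM in dKO and at 5.10, 4.98 and 5.97 CPM in WT (log2 fold change 1.23 ± 0.19, adjusted p = 0.00636). Nek2, which drives centrosome separation, was at 11.8, 11.2 and 10.6 CPM in dKO and at 2.14, 1.73 and 3.21 CPM in WT (2.23 ± 0.36, adjusted p = 0.00942). No dKO library overlapped WT in either gene. Plk1, the polo-like kinase of mitotic entry and exit, rose by 1.54 on the log2 scale. Melk, an AMPK-related kinase, did not pass, at 0.76 ± 0.24 (adjusted p = 0.101).

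The 3 spindle checkpoint kinases all rose. Bub1b, which encodes BubR1, an inhibitor of the APC/C until chromosomes are attached (chromosome 2, 118598211 to 118641591), had 36.4, 34.0 and 31.9 CPM in dKO and 9.29, 12.2 and 12.9 CPM in WT (log2 fold change 1.57 ± 0.19, adjusted p = 0.00334). Bub1, its partner kinase, had 12.6, 9.62 and 14.1 CPM in dKO and 2.19, 2.84 and 3.79 CPM in WT (2.03 ± 0.30, adjusted p = 0.00645). Ttk, or MPS1, the kinase at the head of the checkpoint, rose by 1.86 ± 0.38 (adjusted p = 0.0200). The lowest dKO library was above the highest WT library in each of the 3 genes. All 4 genes of the chromosomal passenger complex, which corrects wrong attachments, rose too. Its kinase Aurkb stood at 19.5, 17.4 and 17.3 CPM in dKO and at 4.62, 4.39 and 6.40 CPM in WT (1.81 ± 0.34, adjusted p = 0.0189). Borealin (Cdca8) and survivin (Birc5) rose by 1.35 ± 0.27 and 1.64 ± 0.34, with adjusted p = 0.0236 and 0.0300, and with the replicate block neither passed (adjusted p = 0.0524 and 0.0678). The scaffold Incenp had the smallest rise of the complex, at 0.65 ± 0.14, and the highest level per kilobase of exon, at 19.1 CPM per kb in dKO and 12.2 CPM per kb in WT.

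At the centromere and kinetochore 5 of 6 genes rose, over a wide span of sizes. Cenpf, a large protein of the outer kinetochore (chromosome 1, 189640606 to 189688086), was at 22.4, 21.9 and 26.2 CPM in dKO and at 4.53, 4.83 and 5.84 CPM in WT. Its log2 fold change of 2.21 ± 0.22 had the smallest adjusted p of the 56 genes (0.00118). Spc25, a subunit of the NDC80 complex that binds microtubules (chromosome 2, 69193895 to 69206194), was at 7.83, 7.72 and 8.67 CPM in dKO and at 1.91, 2.47 and 3.34 CPM in WT (1.64 ± 0.21, adjusted p = 0.00360). Nuf2 and Ndc80, subunits of the same complex, rose by 1.76 and 0.55, and Ndc80 shares 303 bases at 95% identity with the gene model 2700099C18Rik, which held 636 counts over the 9 libraries. Cenpe, the kinesin of the kinetochore, rose by 1.80. Cenpa, the histone H3 variant that marks the centromere, had 63.8, 67.5 and 59.97 CPM in dKO and 51.9, 60.3 and 48.2 CPM in WT, so that the groups overlapped, and its 0.25 ± 0.12 did not pass (adjusted p = 0.247).

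The 8 kinesin motors all rose, by 1.16 (Kif22, a chromosome-bound motor) to 2.01 (Kif18b). Kif20a, a motor of the late spindle and the cleavage site, was at 22.3, 25.4 and 20.8 CPM in dKO and at 6.72, 10.4 and 9.56 CPM in WT (1.35 ± 0.18, adjusted p = 0.00378). Of its exon length, 29.3% is shared with Cdc23 on the other strand. The exons of 7 of the 56 genes (Ccna2, Cdc25c, Kif4, Kif20a, Ube2c, Ncapg and Prc1) overlap those of another gene over more than 10% of their length, and the strand option of the counting is not given in the sources used here, so their counts may hold reads of the neighbour. Kif18b, which trims microtubule ends, was at 15.2, 14.4 and 13.9 CPM in dKO and at 2.81, 3.02 and 4.86 CPM in WT (2.01 ± 0.30, adjusted p = 0.00676). Kif23, the motor of the centralspindlin complex, had the largest p of the 8, at 1.24 ± 0.26 (adjusted p = 0.0291). Kif11, the motor that pushes spindle poles apart, rose by 1.78 and stood at 47.1 to 48.7 CPM in dKO against 12.3 to 15.9 CPM in WT.

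All 7 spindle proteins rose as well. Nusap1, which bundles microtubules near chromosomes, was at 26.0, 21.2 and 22.9 CPM in dKO and at 5.29, 6.05 and 6.95 CPM in WT (1.93 ± 0.23, adjusted p = 0.00277). Spag5, or astrin, was at 25.6, 21.98 and 21.96 CPM in dKO and at 5.24, 5.97 and 6.78 CPM in WT (1.94 ± 0.26, adjusted p = 0.00450). In both genes the highest WT library stayed far below the lowest dKO library. Tpx2, the activator of Aurora A on the spindle, rose by 1.69 ± 0.33 (adjusted p = 0.0243), Aspm at the spindle poles by 1.99, the hyaluronan-mediated motility receptor Hmmr by 2.15, Troap, or tastin, by 2.21, and Dlgap5, which steadies the microtubules of the kinetochore, by 0.86.

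Of the genes of the APC/C and of sister separation 5 of 6 rose. Separase (Espl1), the protease that cuts cohesin, was at 22.6, 20.8 and 19.4 CPM in dKO and at 5.33, 4.65 and 5.79 CPM in WT (1.99 ± 0.25, adjusted p = 0.00360). Sororin (Cdca5), which protects cohesin, rose by 1.47 ± 0.30 (adjusted p = 0.0222), and the APC/C activator Cdc20 by 1.06. Ube2c, the E2 enzyme of the APC/C, rose by 1.70 (adjusted p = 0.0257, and 0.0594 with the replicate block) and shares 22.8% of its exon length with Tnnc2. Securin (Pttg1), the inhibitor that holds separase until anaphase (chromosome 11, 43420250 to 43426251), stood at 35.3, 36.8 and 34.0 CPM in dKO, at 39.8, 44.99 and 36.98 CPM in Usp21 KO and at 39.25, 38.9 and 38.5 CPM in WT, so that each dKO library lay below each WT library, an order seen in 18.4% of all tested genes. The difference of -0.14 ± 0.08 did not pass (adjusted p = 0.359). Per kilobase of exon Pttg1 was the most abundant of the 56 genes in WT (19.4 CPM per kb) and not in dKO (17.7 CPM per kb).

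Condensin I, which compacts mitotic chromosomes, was represented by 4 subunits, and each rose in dKO. Ncapd2 (chromosome 6, 125168007 to 125191701) was at 148, 144 and 129.8 CPM in dKO and at 46.0, 49.8 and 52.3 CPM in WT (1.51 ± 0.17, adjusted p = 0.00267). At 22.45 CPM per kb it had the highest level per kilobase of exon in dKO. Smc2, the ATPase that condensin I and II share, was at 72.3, 63.5 and 74.4 CPM in dKO and at 37.9, 40.9 and 46.9 CPM in WT (0.74 ± 0.12, adjusted p = 0.00748). Ncapg and Ncaph rose by 1.62 each. Mki67, the Ki-67 antigen used to stain dividing cells, was at 221, 199 and 208 CPM in dKO and at 64.1, 63.4 and 83.4 CPM in WT (1.57 ± 0.33, adjusted p = 0.0355, and 0.0619 with the replicate block). Topoisomerase II alpha (Top2a), which untangles sister chromatids, was at 183, 145 and 169.7 CPM in dKO and at 43.8, 46.2 and 62.8 CPM in WT (1.70 ± 0.27, adjusted p = 0.0141). No dKO library overlapped WT in these 4 genes given by library.

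Genes of cytokinesis passed the test in 3 of 5 cases. Ect2, the exchange factor that switches on RhoA at the cleavage site, was at 12.6, 13.9 and 16.3 CPM in dKO and at 4.57, 5.53 and 6.12 CPM in WT (1.39 ± 0.23, adjusted p = 0.00897). Depdc1b, at 8.36, 4.93 and 7.11 CPM in dKO and 1.10, 0.848 and 2.10 CPM in WT, had the largest fold change of the 56 genes (2.31 ± 0.38, adjusted p = 0.00910). Anillin (Anln), which links actin and septin at the cleavage furrow, rose by 1.86. Prc1, the bundler of the central spindle, was at 22.25, 20.3 and 20.5 CPM in dKO and at 8.10, 9.18 and 8.37 CPM in WT. These groups did not overlap, and the 1.30 ± 0.33 did not pass (adjusted p = 0.0577). Racgap1, the partner of Kif23 in centralspindlin, did not pass at 0.98 ± 0.24 (adjusted p = 0.0522). Usp21 KO replicate 2 is in neither group of dKO against WT but enters the estimate of spread. Without it in the fit 7.44% of all tested genes rose in dKO against WT, against 3.01% with all libraries. Ccnb1, Melk, Prc1 and Racgap1 then rose too (adjusted p = 0.000446, 0.0038, 4.94e-06 and 1.33e-06). Their log2 fold changes were 1.63, 0.76, 1.30 and 0.985. Cenpa and Pttg1 did not pass in that fit (adjusted p = 0.0592 and 0.25). The transcription factors of this program both rose, Foxm1 by 1.28 ± 0.22 (adjusted p = 0.0118) and Mybl2 by 1.03 ± 0.24 (adjusted p = 0.0378, and 0.0637 with the replicate block). Mybl2 shares 742 bases at 99.7% identity with Gm3320, which held 9 counts over the 9 libraries. Racgap1 shares 488 bases at 98.2% with AC148020.1, and Mki67 216 bases at 98.6% with Gm44521. The counts of these genes are uncertain to that extent.

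**Figure D3:**
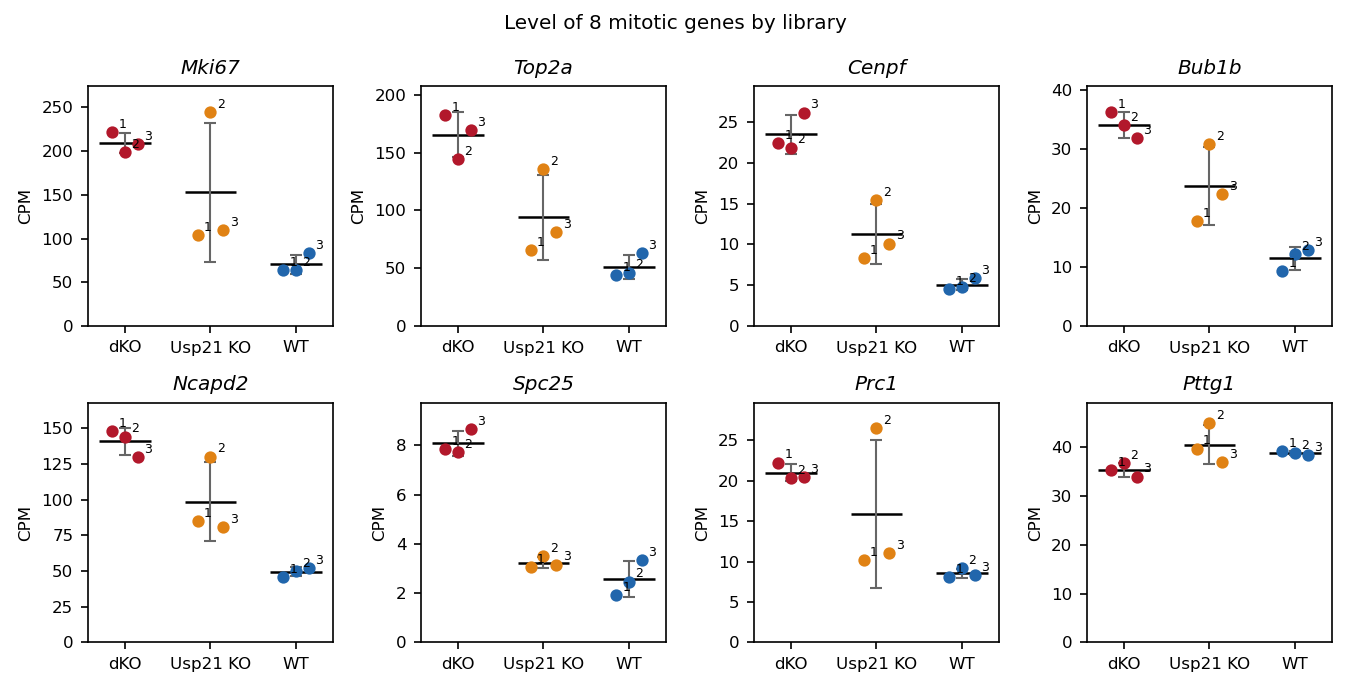
CPM of 8 of the genes in each library (points, numbered by replicate) with the mean (line) and SD (bars, n = 3) of dKO, Usp21 KO and WT. The dKO points lie above the WT points in Mki67, Top2a, Cenpf, Bub1b, Ncapd2, Spc25 and Prc1 and below them in Pttg1, and Usp21 KO replicate 2 is the highest Usp21 KO library in each panel.

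The spread between libraries differed by group. The median coefficient of variation of the 56 genes was 7.32% in dKO, 43.0% in Usp21 KO and 16.7% in WT, against 7.62%, 11% and 7.25% for the 9535 tested genes in the same range of mean CPM. Without replicate 2 the Usp21 KO value was 10.3%. In WT, replicate 3 was the highest library in 48 of the 56 genes, an order seen in 33.2% of all tested genes, and replicate 1 was the lowest in 36, against 29.7%.

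Markers of other cell types were measured in the same libraries, and their counts are read against the 3.01% of all tested genes that rose in dKO against WT and the 11.3% that were higher at an unadjusted p. Neutrophil and myeloid precursor markers summed to 54.9 to 114 CPM in dKO, 5.10 to 45.2 CPM in Usp21 KO and 3.28 to 17.8 CPM in WT, and 3 of 12 tested markers (Ngp, Ltf and Camp) rose in dKO against WT. Ltf, for lactoferrin of neutrophil granules, was at 8.05, 6.84 and 8.14 CPM in dKO and at 0.857, 0.111 and 0.455 CPM in WT, and Cebpe was at 0 in the WT libraries. Macrophage and dendritic cell markers summed to 286 to 782 CPM in dKO, 56.1 to 180.3 CPM in Usp21 KO and 48.4 to 217 CPM in WT, with 0 of 16 past the threshold (5 at an unadjusted p under 0.05). Erythroid and platelet markers summed to 154 to 262 CPM in dKO, 116 to 215 CPM in Usp21 KO and 106 to 129.6 CPM in WT, with 2 of 13 tested markers higher (Hba-a2 and Alas2) and Gp1bb at 0 throughout. CD8 T and NK cell markers summed to 100.2 to 109 CPM in dKO, 50.7 to 62.1 CPM in Usp21 KO and 60.9 to 75.8 CPM in WT, and 4 of 15 rose, Gzma and Klrb1c among them. B cell markers (0 of 12 passed, 1 unadjusted) summed to 73.0 to 82.1 CPM in dKO, 41.8 to 61.0 CPM in Usp21 KO and 38.9 to 76.5 CPM in WT. Plasma cell markers (0 of 8 passed, 5 unadjusted) summed to 311 to 347 CPM in dKO, 212 to 320.4 CPM in Usp21 KO and 203 to 244 CPM in WT. Whether these transcripts came from other cells or from the Treg cells themselves was not tested. The part of any such cells in the level of the mitotic genes was not tested either.

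The second comparison set Usp21 KO against WT. All 56 genes had a positive log2 fold change, with a median of 0.97 (0.01 over all tested genes), and 0 of 56 passed in either direction, while 0.00667% of all tested genes were called higher and as many lower. At an unadjusted p under 0.05, 49 of the 56 were higher, against 6.3% of all tested genes. DESeq2 called 25 of them higher, against 0.9% of all tested genes, and limma voom called 0. The smallest p-values belonged to Ncapd2 (1.00 ± 0.17), Cenpf (1.142 ± 0.216) and Bub1b (1.04 ± 0.19), each with an adjusted p of 0.204. Bub1b was at 17.8, 30.8 and 22.4 CPM in Usp21 KO and at 9.29, 12.2 and 12.9 CPM in WT, with no overlap. Each Usp21 KO library lay above each WT library in 42 of the 56 genes, against 8.06% of all tested genes, and the same number held without replicate 2, against 13.9%.

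The sizes in that comparison rested on Usp21 KO replicate 2, which was above replicates 1 and 3 in 56 of 56 genes, against 39.3% of all tested genes. Its level was a median of 1.98 times the mean of the other 2 libraries (0.993 times over all tested genes), from 1.125 times for Spc25 to 3.22 times for Ccnb1. Mki67 stood at 104, 245 and 109.9 CPM in Usp21 KO replicates 1 to 3, Top2a at 65.6, 136 and 81.2 CPM and Ncapd2 at 85.0, 130.1 and 80.7 CPM. Set against the dKO libraries, replicate 2 was no more often high in the 56 genes than in all tested genes. Over all tested genes, though, dKO and Usp21 KO were level (median log2 fold change -0.01). Replicates 1 and 3 lay below each dKO library in 55 of the 56 genes, against 23.4% of all tested genes. In 30 of the 56 genes replicate 2 reached at least the lowest dKO library, against 64.3% of all tested genes. In 16 it exceeded each dKO library, against 34.0%, Mki67, Prc1 and Melk among them. The same library had an effector Treg score of 0.76, against -0.20 and -0.24 in replicates 1 and 3, a naive T cell score of -0.72, against 0.07 and 0.13, and the highest neutrophil precursor sum of its group, and the part of these differences in the mitotic genes was not tested.

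Without replicate 2 the median log2 fold change of Usp21 KO against WT was 0.52, and 39 of the 56 genes were higher at an unadjusted p under 0.05, against 4.34% of all tested genes. Ncapd2 then passed (0.74 ± 0.08, adjusted p = 0.000838), as 1 of 6 genes called higher (0.0386% of those tested), and DESeq2 called 17 of the 56 higher, against 0.553% of all tested genes. Ccnb1, Cenpa and Pttg1 had negative values in that fit, at -0.20, -0.02 and -0.03. Spc25, at 3.047 and 3.16 CPM, and Smc2, at 39.4 and 45.8 CPM, stood within the range of the WT libraries in Usp21 KO replicates 1 and 3.

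The third comparison set dKO against Usp21 KO, which differ by label in Usp22. With all libraries 3 of the 56 genes rose in dKO and 0 fell, while 1.7% of all tested genes rose and 3.2% fell, and the median log2 fold change was 0.67 (-0.01 over all tested genes). Over all tested genes 255 rose and 480 fell, and with library totals 654 (4.36%) rose and 281 fell, with 8 of the 56 higher. Spc25 was at 7.83, 7.72 and 8.67 CPM in dKO and at 3.047, 3.49 and 3.16 CPM in Usp21 KO (1.32 ± 0.21, adjusted p = 0.0100). Cenpf was at 22.4, 21.9 and 26.2 CPM in dKO and at 8.31, 15.4 and 10.1 CPM in Usp21 KO (1.06 ± 0.21, adjusted p = 0.0217). Smc2 was at 72.3, 63.5 and 74.4 CPM in dKO and at 39.4, 52.9 and 45.8 CPM in Usp21 KO (0.61 ± 0.12, adjusted p = 0.0207). In these 3 genes Usp21 KO replicate 2 also stayed below each dKO library. The count was 0 without dKO replicate 3, 1 (Spc25) without dKO replicate 1 and 2 without dKO replicate 2. It was 1 (Spc25) without Usp21 KO replicate 1. Over all tested genes these fits, in the order given, called 168, 190, 192 and 287 in either direction, against 735 with all libraries. DESeq2 called 20 of the 56 higher, against 4.71% of all tested genes, and at an unadjusted p under 0.05 edgeR had 28 higher, against 10.7%, and Pttg1 lower.

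Without Usp21 KO replicate 2, 50 of the 56 genes rose in dKO against Usp21 KO, while 6.79% of all tested genes rose, and the median log2 fold change was 1.134. The 6 that did not pass were Cdc25c, Melk, Cenpa, Ndc80, Pttg1 and Mybl2. Each dKO library lay above Usp21 KO replicates 1 and 3 in 55 genes, against 23.4% of all tested genes, and above all 3 Usp21 KO libraries in 26, against 13.1%. The largest differences were those of Ccnb1 (1.84), Hmmr and Nuf2 (1.71 each), Troap (1.58) and Bub1 (1.57). In 42 of the 56 genes the dKO libraries lay above Usp21 KO replicates 1 and 3 and these above the WT libraries, an order found in 2.0% of all tested genes. This comparison and the first share the dKO libraries, and the first and second share the WT libraries, so their values are not independent.

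**Figure D4:**
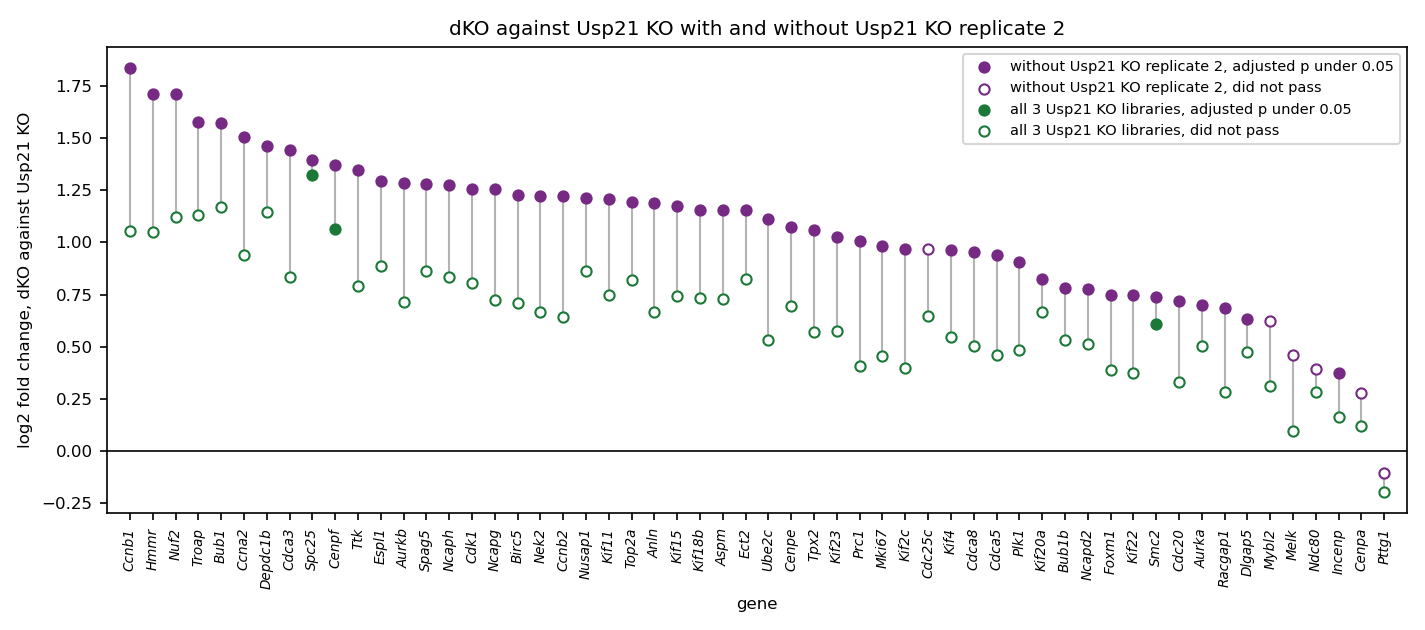
Log2 fold change of each of the 56 genes in dKO against Usp21 KO without Usp21 KO replicate 2 (purple) and with all 3 Usp21 KO libraries (green), joined by a line per gene; filled points passed an adjusted p of 0.05. Each of the 56 values is higher without the library, and the filled green points are Spc25, Cenpf and Smc2.

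Other genes of mitosis, outside the 56, were counted in dKO against WT beside the 3.01% of all tested genes that rose. Of 40 further kinetochore and centromere genes 19 rose and 0 fell (median 0.81), among them the checkpoint protein Mad2l1 (0.99 ± 0.14, adjusted p = 0.00547) and shugoshin Sgo1, the guard of centromeric cohesin (1.38 ± 0.20, adjusted p = 0.00551). Of 32 further spindle, motor and cytokinesis genes 18 rose and 0 fell (median 0.87), with the scaffold Iqgap3 at 2.09 ± 0.29 and citron kinase (Cit) at 1.52 ± 0.21. Of 31 further regulators of mitotic entry and exit 4 rose and 0 fell (median 0.095), namely Wee1, the kinase that holds CDK1 back, the cyclin Ccnf, the kinase Mastl and the APC/C inhibitor Fbxo5. Cohesin and further condensin genes had 2 of 18 higher and 0 lower (median 0.04), Ncapg2 of condensin II (1.72 ± 0.25) and the acetyltransferase Esco2 (1.84 ± 0.30).

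Genes upstream of mitosis were set beside these. Of 55 G1/S and replication genes 27 rose and 0 fell (median 0.56), with the polymerase Pole at 1.06 ± 0.11 and the factor E2f1 at 1.515 ± 0.19. Of 15 subunits of MuvB, the related DREAM complex and NF-Y 2 rose and 0 fell (median 0.03), Rbl1 (0.28 ± 0.07) and Tfdp1 (0.50 ± 0.10). Of 22 CDK inhibitors and quiescence genes 1 rose, Cdkn2c (0.995 ± 0.238), and 1 fell, Cdkn1b, the inhibitor p27 (-0.39 ± 0.06, adjusted p = 0.00676). In Usp21 KO against WT 0 genes of these 7 lists passed edgeR's test. At an unadjusted p under 0.05 the lists, in the order given, had 11, 18, 4, 1, 18, 1 and 3 genes higher, against 6.3% of all tested genes. They had 0, 1, 2, 1, 0, 1 and 2 genes lower. Without Usp21 KO replicate 2 the lists had 4, 10, 3, 2, 15, 0 and 2 genes higher, against 4.34% of all tested genes. The numbers lower were then 0, 0, 3, 0, 2, 2 and 2. There 1 cohesin or condensin gene also rose at an adjusted p under 0.05, against 0.0386% of all tested genes. In dKO against Usp21 KO, where 1.7% of all tested genes rose and 3.2% fell, the genes that rose were 4 of 40 in the kinetochore list, 0 of 32 in the spindle list, 0 of 31 regulators of entry and exit, 1 of 18 cohesin and condensin genes, 9 of 55 G1/S genes, 1 of 15 MuvB and DREAM subunits and 0 of 22 CDK inhibitors and quiescence genes, of which 2 fell. Without Usp21 KO replicate 2, where 6.79% of all tested genes rose and 7.31% fell, the same lists had 20, 18, 7, 2, 34, 2 and 1 genes that rose. In that fit 1 cohesin or condensin gene, 1 G1/S gene and 6 CDK inhibitors and quiescence genes fell.

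**Figure D5:**
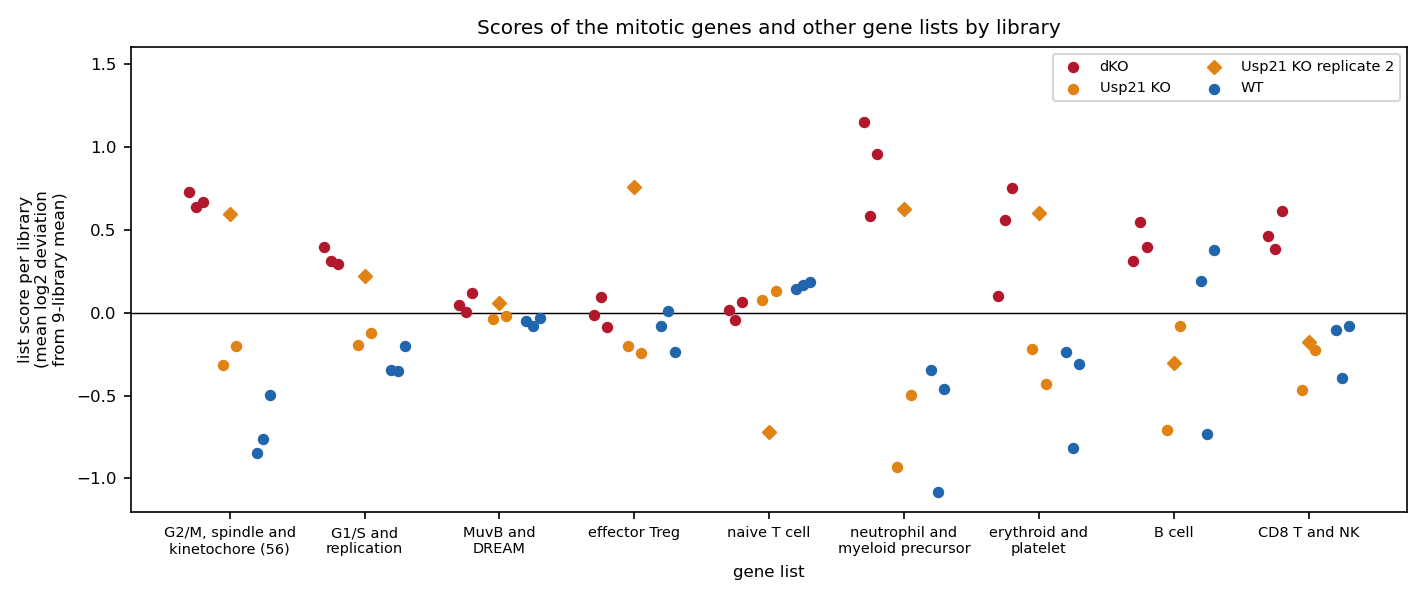
Score of each gene list in each library, as the mean over its tested genes of log2(CPM + 1) minus the mean of the 9 libraries, for dKO, Usp21 KO (replicate 2 as a diamond) and WT. The 56 mitotic genes score 0.64 to 0.73 in dKO, -0.32, 0.59 and -0.20 in Usp21 KO and -0.85 to -0.50 in WT, and Usp21 KO replicate 2 also stands apart from its group in the effector Treg and naive T cell lists.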

How the data were processed

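RNA of 9 libraries of mouse splenic Treg cells was analysed, 3 for each genotype, grouped by the titles. The authors deposited raw read counts per gene, whole numbers with no normalization, and the submitters' processing notes name cutadapt 1.13, STAR, HTSeq 0.6.1p1, DESeq2 1.14.1 and the mm10 build; strand option and annotation are not given in the sources used here. From these counts, CPM, log2 fold changes and adjusted p-values were computed here with edgeR 4.0.16 in R 4.3.3 (TMM factors of 0.964 to 1.05, filterByExpr, quasi-likelihood test with robust dispersion, 1 fit over all 9 libraries, Benjamini-Hochberg over 14994 genes, threshold 0.05), tested on simulated data first. Total counts were 18067377 to 40334577 per library. No column was left without a sample and no pair of libraries was alike within sampling noise. The labels number the libraries as biological samples but do not tie them to animals. The p-values thus measure the spread between these libraries, which may differ from that between animals.

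The 56 genes, their roles and the further lists were chosen with earlier results of these data known. Genes are named by a rule: per role those with the 2 smallest p-values and the largest p-value in dKO against WT, genes called in the other comparisons, and the 2 smallest p-values of each further list. Other genes appear as members of a count or range, and Top2a, Kif11, Racgap1, Incenp, Ndc80 and others given with values outside the rule were chosen after their values were seen. Exon lengths and overlaps come from GENCODE M21 and promoters from RefSeq (GRCm38.p6). Copies are stretches of at least 200 bases at 95% identity. Scores are means of log2(CPM + 1) minus the mean of the 9 libraries. Each SE was derived as the absolute log2 fold change divided by the square root of the F statistic of the quasi-likelihood test.

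Replicate numbers in the titles were checked for pairing. Deviations of same-numbered libraries correlated weakly between dKO and WT (0.112, 0.239 and 0.113). Libraries of different numbers were not compared in this way, so these values cannot show whether the libraries were paired. The fit with the replicate number as a block is given where it ends a call. Alternatives were DESeq2 1.42.0, limma 3.58.1 (voom), other size factors, filters, fewer libraries and each library left out.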

Additional observations from a re-analysis of the deposited data

How the results depend on the processing

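The direction of the 56 genes in dKO against WT held in each alternative: of 1064 pairs of gene and alternative, 849 kept direction and side of the threshold, 179 no longer passed, 36 newly passed and 0 reversed. In Usp21 KO against WT 1014 of 1064 pairs kept both, 44 newly passed and 6 reversed, and in dKO against Usp21 KO 912 kept both, 13 no longer passed, 137 newly passed and 2 reversed. The reversed values were Ccnb1, Cenpa and Pttg1 in Usp21 KO against WT without Usp21 KO replicate 2 (-0.203, -0.020 and -0.025 in edgeR, -0.192, -0.013 and -0.016 in DESeq2), and Melk in dKO against Usp21 KO without Usp21 KO replicate 1 (-0.077) or replicate 3 (-0.039). Over the 9 fits without 1 library these genes ran from -0.203 to 0.882 (Ccnb1), -0.020 to 0.230 (Cenpa), -0.025 to 0.123 (Pttg1) and -0.077 to 0.461 (Melk). With each of the 9 libraries left out in turn, the number of the 56 genes higher ran from 14 to 54 in dKO against WT, from 0 to 50 in dKO against Usp21 KO and from 0 to 1 in Usp21 KO against WT. Their median log2 fold change ran over 1.591 to 1.87, 0.471 to 1.134 and 0.517 to 1.162 in these comparisons, and the genes called over 193 to 2340, 168 to 2192 and 2 to 17. DESeq2 called 1581 genes in dKO against WT, 1728 in dKO against Usp21 KO with 20 of the 56 higher, and 219 in Usp21 KO against WT with 25 of the 56 higher. Without Usp21 KO replicate 2, an alternative chosen after seeing the data, it called 2625 genes, 2593 genes (51 of the 56, median 1.131) and 196 genes (17 of the 56, median 0.523). Limma voom had 16 of the 56 higher in dKO against Usp21 KO, library totals 8 and no filter on low counts 8. Over all tested genes these fits called 847, 935 and 961 in either direction. With no filter Usp21 KO against WT gave 40 genes and 1 of the 56 (Cenpf). With only the 6 libraries of a comparison, 2315 genes were called in dKO against WT, 147 in dKO against Usp21 KO (1 of the 56) and 1 in Usp21 KO against WT. The replicate block gave 44 of the 56 in dKO against WT, 4 in dKO against Usp21 KO (461 genes in all) and 0 in Usp21 KO against WT, and beyond Ccnb2, Birc5, Cdca8, Ube2c, Mki67 and Mybl2 it ended no call among the 56 in dKO against WT. In the comparisons with Usp21 KO the correlations of same-numbered libraries had both signs, from -0.266 to 0.157. The block with 6 libraries, also added later, called 2961, 8 (0 of the 56) and 0 genes. Of the 50 genes with a mean of at least 5 CPM, an alternative of the same kind, 45 were higher in dKO against WT and 2 in dKO against Usp21 KO. The cause of these changes was not tested. Cdc25c, Depdc1b and Troap were under 1 CPM in some libraries, and the lowest count of the 56 genes in a library was 12.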
